A study of Zea mays with 8 samples.

Results

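The genes described here are an1 (Zm00001d032961), d5 (Zm00001d002349, also called KSL3), d3 (Zm00001d045563) and d1 (Zm00001d039634), 4 maize genes of gibberellin synthesis. They were chosen by identifier, with no rule on their values, from the 44135 genes of a table of FPKM. Earlier results of these data were known when they were chosen. FPKM is a level per length of transcript and per mapped fragment of the library. Messenger RNA had been sequenced from emergent leaf 4 of maize (Zea mays, cultivar Golden Queen), taken from plants aged 14 d at stage V-3. The 4 SLB libraries are of leaves that received a spore suspension and were sampled at 24 h. The 4 control libraries are of leaves that received 0.1% Tween 20 in water and were sampled at the same time. SLB is short for southern leaf blight, which the fungus Cochliobolus heterostrophus causes, and the study asked how maize genes with roots in hormone pathways serve diterpenoid defence. Each group is of 1 cultivar and 1 time, and the genome build was that of another line, B73. Nothing in the labels ties replicates to separate plants, and the spread behind each p-value may therefore be technical.

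Gibberellins are diterpenoid hormones that drive stem and leaf elongation. Their synthesis begins in the plastid, where ent-copalyl diphosphate synthase (an1) cyclises geranylgeranyl diphosphate and ent-kaurene synthase (d5) turns the product into ent-kaurene. Cytochrome P450 enzymes then oxidise ent-kaurene, and the P450 ent-kaurenoic acid oxidase (d3, CYP88A1) makes the first gibberellin. Dioxygenases finish the route, among them the gibberellin 3-oxidase (d1), which makes the bioactive hormone. Maize mutants of these genes are dwarfed, and ent-copalyl diphosphate is also the starting point of the kauralexin and dolabralexin defences, which use separate, related enzymes.

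Library totals differed by group. The summed FPKM of a library was 706734 to 755209 in SLB libraries and 1415306 to 2118483 in controls. The median FPKM of the 19407 genes that reached 1 FPKM in 4 or more libraries was 9.06 to 9.57 in SLB libraries and 4.88 to 6.12 in controls. The median gene was therefore higher in SLB libraries on this scale, and the reported fold change of each gene is set beside the median change of all genes. Leaf cell type markers, other gibberellin genes and diterpenoid defence genes were listed by symbol, and 0 of them could be tied to an identifier of the table, so neither the tissue label nor the rest of the pathway was checked. Sequencing depth is unknown.

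In short, d3 transcripts fell steeply after SLB treatment. Those of d5 were higher in every SLB library than in any control, as in 41.5% of the genes above 0 FPKM in at least 1 library. They stayed below 1 FPKM, and their rise was not called after quantile normalization. Transcripts of an1 and d1 were under 0.5 FPKM in every library of both groups. Of the 4 genes, d3 was the only one to reach 1 FPKM in any library, and it did so in all 8. The filter on low values, 1 FPKM or more in at least 4 libraries, therefore kept 1 of the 4 genes. The other 3 are reported from a fit over all 30738 genes above 0 FPKM in at least 1 library.

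**Figure D1:**
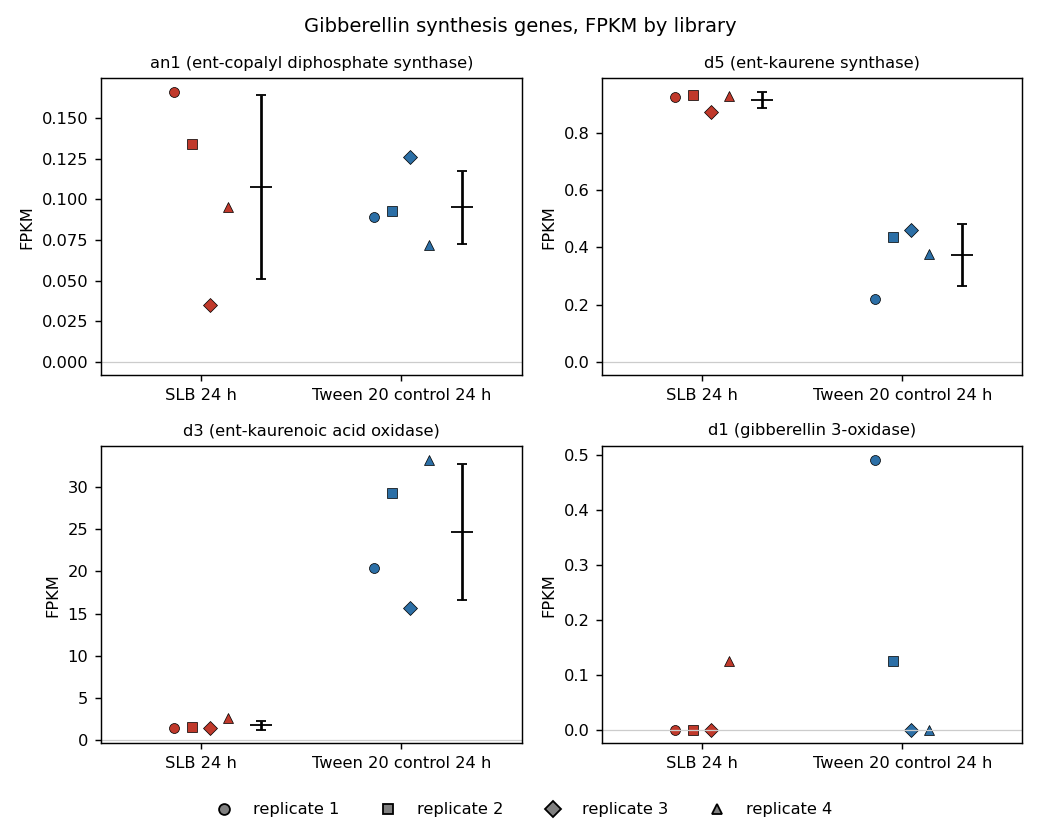
FPKM of each gene in the 4 SLB libraries (red, left) and the 4 Tween 20 control libraries (blue, right), on a linear axis of its own for each gene. Marker shapes give the replicate number, and bars give the mean and SD (n = 4), left out for d1 because of its values of 0. The SLB and control libraries stand apart for d3 and d5 and overlap for an1 and d1.

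The first gene of the route, an1, stayed below 0.2 FPKM in every library. Its level was 0.166, 0.134, 0.035 and 0.095 FPKM in SLB replicates 1 to 4, against 0.089, 0.093, 0.126 and 0.072 FPKM in controls 1 to 4. The groups overlapped: the lowest and the highest value of all 8 both came from SLB libraries. The mean was 0.107 ± 0.0564 FPKM in SLB libraries and 0.095 ± 0.0226 FPKM in controls (SD, n = 4 each). The log2 fold change on log2(FPKM + 1) was 0.02 (SE 0.04, 95% interval -0.08 to 0.11, limma adjusted p = 0.765), which is -0.18 relative to the median of 0.20 over all genes in that fit. At this level a pseudocount of 1 flattens any change, so the interval does not bound the fold of the transcript itself. With a pseudocount of 0.1 the log2 fold change was 0.05 (SE 0.25, limma adjusted p = 0.863). Its sign followed the scaling, from -0.22 after quantile normalization (limma adjusted p = 0.000774) to 0.14 with equal library totals (limma adjusted p = 0.0717). No direction is given for an1. Among the 2944 genes of like level (mean of 0.05 to 0.2 FPKM over the 8 libraries), 28.4% rose and 2.48% fell past the threshold of 0.05 on the deposited scale.

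The second gene, d5, was low but steady among SLB libraries. Its level was 0.925, 0.932, 0.873 and 0.930 FPKM in SLB replicates 1 to 4, against 0.220, 0.437, 0.460 and 0.376 FPKM in control replicates 1 to 4. Every SLB library lay above every control, as in 41.5% of the genes above 0 FPKM in at least 1 library. The mean was 0.915 ± 0.0282 FPKM in SLB libraries and 0.373 ± 0.108 FPKM in controls (SD, n = 4 each), a ratio of 2.45. In the fit, d5 rose by 0.48 on the log2(FPKM + 1) scale (SE 0.07, 95% interval 0.31 to 0.65, limma adjusted p = 0.000582). Of all genes in that fit, 43.6% rose and 16.9% fell past the same threshold. The median log2 fold change of all genes in it was 0.20, which leaves 0.28 for d5 beyond the median. The log2 fold change of d5 was 0.71 with a pseudocount of 0.5 (limma adjusted p = 0.00123) and 1.13 with 0.1 (limma adjusted p = 0.00496). The median of all genes also rose, to 0.30 with a pseudocount of 0.5 and 0.57 with 0.1.

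The rise of d5 depended on how libraries were made comparable. The log2 fold change was 1.01 with equal totals (limma adjusted p = 1.89e-05), where the median of all genes was 0.81, so most of that rise was shared by the median gene. After median-ratio scaling, which sets the median change close to 0, the log2 fold change of d5 was 0.19 (limma adjusted p = 0.0477). After quantile normalization it was 0.03 and not past the threshold (limma adjusted p = 0.737). The place of d5 among the genes of a library is not moved by any factor common to that library, but its direction depended on the genes ranked. Among the 19407 genes tested, d5 stood at percentile 4.91 ± 0.68 in SLB libraries and 9.02 ± 1.26 in controls (SD, n = 4 each, two-sided exact permutation p = 0.0286). As d5 failed the filter that chose these genes, its lower SLB percentile among them was largely set in advance. Among the genes above 0 FPKM in each library, its percentile was higher in SLB libraries by 9.36 (exact permutation, adjusted p = 0.0571 over the 4 genes). Ranked among the 30738 genes above 0 FPKM in at least 1 library, a set chosen after the values were seen, d5 stood at percentile 37.0 ± 0.254 in SLB libraries and 36.5 ± 1.6 in controls (SD, n = 4 each, two-sided exact permutation p = 0.571). Among the 4239 genes of like level (mean of 0.3 to 1.2 FPKM over the 8 libraries), 44.7% rose and 10.6% fell, and 42.7% had a log2 fold change at least that of d5. The median log2 fold change of this class was 0.35, above the 0.20 of all genes in the fit and closer to that of d5.

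The P450 gene d3 was the most abundant of the 4 genes in every library and the one that changed most on the deposited scale. Its level was 1.465, 1.541, 1.434 and 2.567 FPKM in SLB replicates 1 to 4, against 20.4, 29.3, 15.7 and 33.2 FPKM in controls 1 to 4. The groups were far apart, with the highest SLB library below the lowest control, as in 22.2% of the 19407 genes tested. SLB replicate 4 stood above the 3 other SLB libraries, which lay close together. The mean was 1.75 ± 0.545 FPKM in SLB libraries and 24.7 ± 8.03 FPKM in controls (SD, n = 4 each), so the control mean was 14.1 times the SLB mean. In the fit, d3 fell by 3.18 on the log2(FPKM + 1) scale (SE 0.24, 95% interval -3.73 to -2.63, limma adjusted p = 1.93e-06).

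The fall of d3 ran against the bulk of the transcriptome on the deposited scale. Falls past the threshold were called for 24.6% of the genes tested and rises for 56%, and the median log2 fold change was 0.69. Relative to that median, d3 changed by -3.88. A log2 fold change as low as that of d3, or lower, was found for 730 of 19407 genes tested (3.76%). Among the 7653 tested genes with a mean of 10 to 100 FPKM, like d3, 4118 rose, 2235 fell and 354 (4.63%) changed as low or lower. The size of the fall moved with the scaling, between -3.81 after median-ratio scaling and -2.18 with equal totals, and it passed the threshold in each of the 20 alternatives run.

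**Figure D2:**
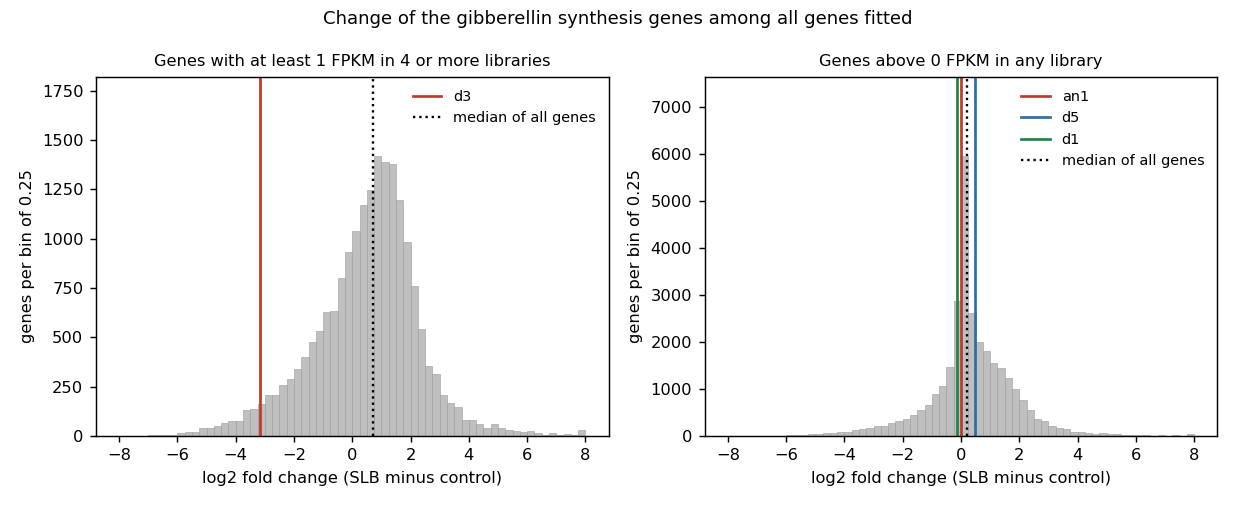
Number of genes (vertical axis) by log2 fold change of SLB minus control on log2(FPKM + 1) (horizontal axis, bins of 0.25, the outermost bins holding all values beyond), for genes that reached 1 FPKM in 4 or more libraries (left) and for genes above 0 FPKM in at least 1 library (right). The line for d3 at -3.18 lies in the lower tail, and those for an1 at 0.02, d5 at 0.48 and d1 at -0.14 lie near the dotted median of 0.20.

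Per 1000000 of each library's own summed FPKM, d3 took 2.42 ± 0.814 in SLB libraries and 14.0 ± 4.26 in controls (SD, n = 4 each). On that scale the control mean was 5.79 times the SLB mean. The corresponding values of d5 were 1.26 ± 0.0525 in SLB libraries and 0.222 ± 0.0926 in controls (SD, n = 4 each). The SLB mean of d5 was thus 5.66 times its control mean on that scale, a rise about as large as the fall of d3. Among the genes tested, d3 held percentile 10.1 to 18.3 in SLB libraries and 70.9 to 83.2 in controls. The mean percentile was 12.2 ± 4.05 in SLB libraries and 78.1 ± 5.60 in controls (SD, n = 4 each), a difference of -65.9. The other 3 genes, which lie at the bottom of this ranking, also held lower percentiles in SLB libraries without overlap, with differences of -3.96 for an1, -4.12 for d5 and -4.93 for d1. They failed the filter that chose the ranked genes and lay below 1 FPKM in every library. Genes at 1 FPKM or more numbered 19013 to 19181 in SLB libraries and 16304 to 17565 in controls. The direction for these 3 was thus largely set in advance. At 0 FPKM, d1 held percentile 1.62 and 2.39 in control replicates 3 and 4. In SLB replicate 4, at 0.126 FPKM, it held 0.572, so its shift is not one of d1 level. Each of the 4 differences had the smallest p that the two-sided exact permutation test allows, 0.0286, also after adjustment over the 4 genes, so the p is not particular to d3. The share of all genes whose percentiles stand apart between the groups was not counted. The separation of all 4 is therefore not read as a trait of these genes. In a bulk leaf, fewer cells that express d3 and less d3 RNA per cell cannot be told apart.

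The last gene, d1, was listed at 0 in 5 of the 8 libraries. Its level was 0, 0, 0 and 0.126 FPKM in SLB replicates 1 to 4, against 0.492, 0.126, 0 and 0 FPKM in controls 1 to 4. The groups overlapped, and the highest value came from control replicate 1. A value of 0 in a table of FPKM can also be a failed estimate. The difference on log2(FPKM + 1) was -0.14 (SE 0.13, 95% interval -0.44 to 0.15, limma adjusted p = 0.369), or -0.34 relative to the median of 0.20 over all genes in that fit. Without control replicate 1 it was -0.01 (limma adjusted p = 0.862), so the value rests on that library, and no fold is given.

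The order of the 4 genes by FPKM was compared within each group. In SLB libraries d3 came first (1.43 to 2.57 FPKM) and d5 second (0.873 to 0.932 FPKM), without overlap. They were followed by an1 (0.035 to 0.166 FPKM) and d1 (0 to 0.126 FPKM), whose values overlapped. In controls d3 also came first (15.7 to 33.2 FPKM), and d5 (0.220 to 0.460 FPKM) lay above an1 (0.072 to 0.126 FPKM) without overlap. The control values of d1, from 0 to 0.492 FPKM, overlapped those of both. Of the FPKM summed over the 4 genes, d3 made up 61.7% ± 5.17 in SLB libraries and 97.3% ± 1.17 in controls (SD, n = 4 each). The share of d5 was 33.6% ± 5.73 in SLB libraries and 1.61% ± 0.831 in controls (SD, n = 4 each). The sum itself was 2.81 ± 0.619 FPKM in SLB libraries and 25.3 ± 7.96 FPKM in controls (SD, n = 4 each). Since d3 made up most of that sum, the share of d5 moves with the level of d3 as well as with its own.

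A ratio of FPKM within a library does not move with a factor common to that library. With a pseudocount of 0.1 this holds only in part, since an1 and d1 lie near or below 0.1 FPKM. The ratio of d3 to d5 as deposited, which brackets the steps from ent-kaurene formation to the first gibberellin, was 1.58, 1.65, 1.64 and 2.76 in SLB replicates 1 to 4, against 92.8, 67.1, 34.1 and 88.4 in control replicates 1 to 4. Every SLB library was thus far below every control. On log2 of FPKM + 0.1 the ratio was 0.83 ± 0.36 in SLB libraries and 5.68 ± 0.59 in controls (SD, n = 4 each), a difference of -4.85. The two-sided exact permutation test gave its smallest possible p, 0.0286, and an adjusted p of 0.0429 over the 6 pairs of genes. The same p and adjusted p were found for d3 over an1, d3 over d1 and d5 over an1. How many pairs of other genes stand apart in this way was not counted. Of the 19407 genes tested, 15636 passed the threshold in the limma fit, so separation of a pair is not read as particular to these genes. With no pseudocount, an alternative chosen after the values were seen, the log2 ratios differed by -5.15 for d3 over d5, -3.79 for d3 over an1 and 1.35 for d5 over an1. Each of these 3 differences had an exact permutation p of 0.0286, also after adjustment over the 3 pairs.

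The ratio of d3 to an1 was 3.16 ± 0.57 on that log2 scale in SLB libraries and 6.93 ± 0.64 in controls (SD, n = 4 each). The ratio of d3 to d1 was 3.88 ± 0.21 in SLB libraries and 6.96 ± 1.36 in controls (SD, n = 4 each). The ratio of d5 to an1 was higher in SLB libraries, with 2.33 ± 0.39 there and 1.25 ± 0.34 in controls (SD, n = 4 each). Relative to d5 and to an1, d3 was thus lower in every SLB library than in any control, and d5 was higher relative to an1. For d5 over an1 the gap was narrow: the ratio as deposited was 5.57 to 24.9 in SLB libraries and 2.47 to 5.22 in controls. It also rests on the low level of an1, which was 0.035 to 0.166 FPKM in SLB libraries. Since d1 was listed at 0 in 5 libraries and 0 is read as 0.1 FPKM, the ratio of d3 to d1 in those libraries is that of d3 to the pseudocount and says nothing of d1. The ratio of d5 to d1 differed by 1.77 and overlapped between groups (exact permutation p = 0.0857, adjusted p = 0.103), and that of an1 to d1 differed by 0.69 (exact permutation p = 0.4, adjusted p = 0.4). The ratios to d1 also moved with the pseudocount: with 0.5 or 1, the ratio of d5 to d1 reached an adjusted p of 0.0343 in the exact permutation test.

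**Figure D3:**
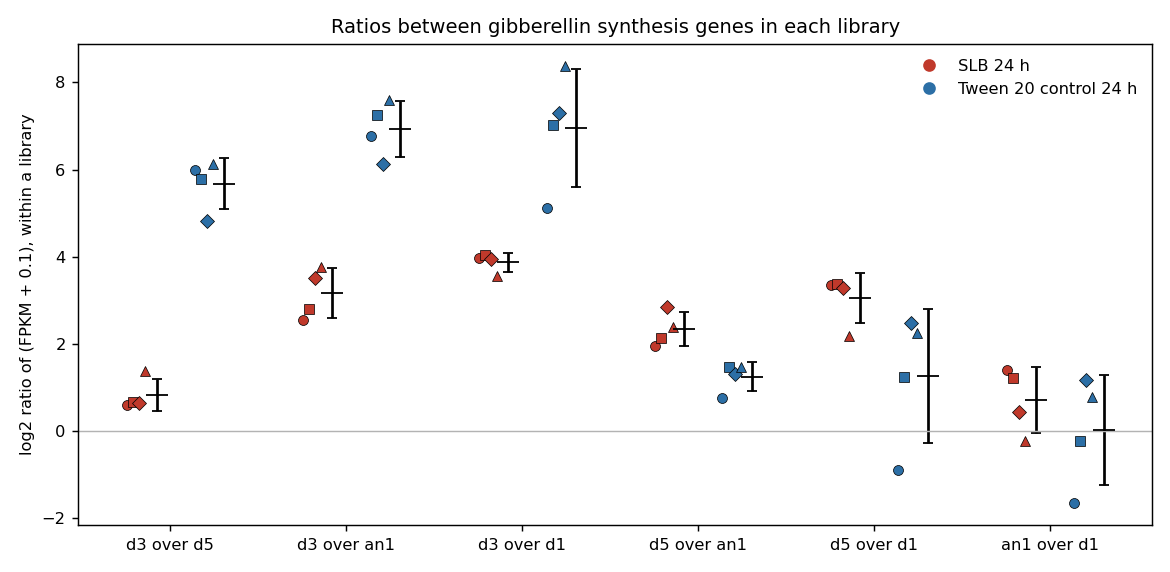
Ratio between pairs of the 4 genes in each library (vertical axis, log2 of FPKM + 0.1), SLB libraries in red on the left of each pair and Tween 20 controls in blue on the right, with marker shapes for replicates 1 to 4 and bars for the mean and SD (n = 4). The 3 ratios with d3 on top are lower in every SLB library than in any control, with mean differences of -4.85 for d3 over d5, -3.77 for d3 over an1 and -3.08 for d3 over d1. The last of these is set by the pseudocount in the 5 libraries where d1 is listed at 0.

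Among the tested genes, those whose profile over the 8 libraries was most like each of the 4 were found by Pearson correlation of log2(FPKM + 1). The profile of d3 was matched most closely by Zm00001d053930 (r = 0.998), at 8.55 ± 1.00 FPKM in SLB libraries and 23.9 ± 2.74 FPKM in controls (SD, n = 4 each). The profile of d5 was matched most closely by Zm00001d011282 (r = 0.997), at 10.9 ± 0.357 FPKM in SLB libraries and 4.02 ± 0.979 FPKM in controls (SD, n = 4 each). For an1 it was Zm00001d016278 (r = 0.944), and for d1 it was Zm00001d022618 (r = 0.965). The sources used here give these 4 identifiers no name. A correlation of at least 0.9 was reached by 3176 genes with d3, 8587 with d5, 2 with an1 and 8 with d1. Of these, 3174 genes also fell past the threshold as d3 did, and 8586 rose past it as d5 did. The 8 points fall into 2 groups, so these correlations largely restate the difference between the groups.

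**Figure D4:**
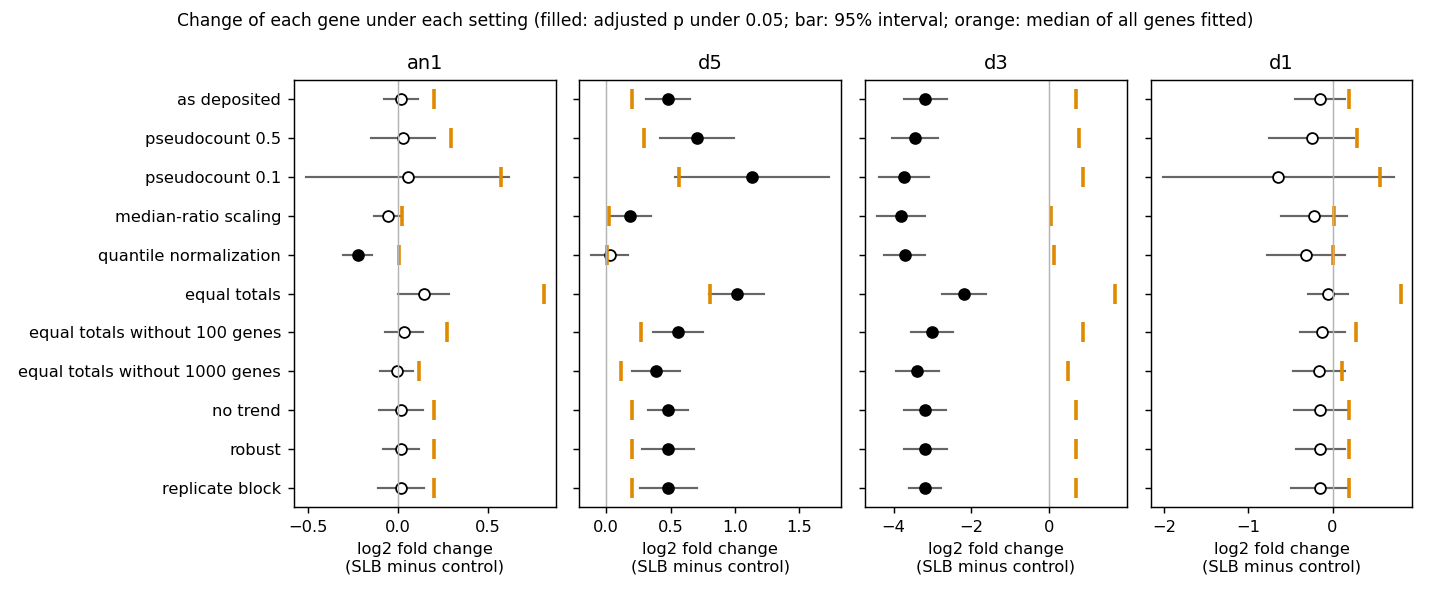
Log2 fold change of SLB minus control (horizontal axis, a scale of its own for each gene) under the reported setting (top) and 10 alternatives (rows), with 95% intervals. Filled points have a limma adjusted p under 0.05, and orange marks give the median of all genes in the same fit. The value for d3 lies between -3.81 and -2.18 throughout, that for d5 is above 0 and loses its call with quantile normalization, and the intervals for an1 and d1 include 0 except for an1 with quantile normalization, where it lies below 0, and with equal totals, where it lies just above 0.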

How the data were processed

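The authors deposited 1 table of FPKM, per the file headers with 1 column per library, and 0 columns were left unused. Per the submitters' processing notes, Trimmomatic 0.32 had trimmed the reads and the genome build was B73 RefGen_v4. The library kit kept strand, per the labels' protocols. The sources used here name no aligner, quantifier or adjustment between libraries. No library was a duplicate of another: in any pair, equal values above 1 FPKM made up at most 0.038%.

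Values were taken to log2(FPKM + 1) and fitted over the whole table with limma 3.58.1 in R 4.3.3 (group only, trend, two-sided, Benjamini-Hochberg, threshold 0.05), for genes that reached 1 FPKM in at least 4 libraries or, for an1, d5 and d1, without a filter. Percentiles and ratios within a library were compared by exact permutation over 70 assignments with scipy 1.17.1. All 4 genes are named, with the tested gene most like each. The genes, lists, tests and alternatives were chosen with earlier results of these data known. The reference gene table (Zm-B73-REFERENCE-NAM-5.0) matched 0 identifiers, so no position or sequence is given.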

Additional observations from a re-analysis of the deposited data

Results flagged for a closer look

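In 28 groups of 4 values checked (FPKM, percentiles and ratios of the 4 genes), a single library stood far from the other 3 in 6, where chance gives about 1 in 20 for independent values, which these are not. Of the 6, 5 concern SLB replicate 4. It had 2.567 FPKM of d3, against 1.434 to 1.541 FPKM in the other SLB libraries, and its d3 percentile among tested genes was 18.3, against 10.1 to 10.2. Its log2 ratio of d3 to d5 was 1.37, against 0.61 to 0.67. It was also the only SLB library with d1 above 0, at 0.126 FPKM, and its log2 ratio of d5 to d1 was 2.19, against 3.28 to 3.37. With the others tied at 0, any value of d1 above 0 would have been picked out. The same library had 28071 genes above 0 FPKM, against 24649 to 26563 in the other SLB libraries, and 4442 genes between 0 and 0.2 FPKM, against 1799 to 3122. The part of this in the d3 and d1 values was not tested. Without that library the log2 fold change of d3 was -3.31 (limma adjusted p = 6.64e-06). The sixth is SLB replicate 3, with 0.873 FPKM of d5, against 0.925 to 0.932 FPKM in the other SLB libraries, a gap smaller than the distance to any control.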

How the results depend on the processing

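The fall of d3 kept its direction and its call in all 20 alternatives (limma adjusted p 8.74e-07 to 1.75e-05), and d5 kept both in 17 of 18, the exception being quantile normalization (0.0263, adjusted p = 0.737). For d1, all 18 alternatives stayed below 0 and none passed the threshold. The sign of an1 turned with median-ratio scaling (-0.0566), with quantile normalization (-0.224), with equal totals without the 1000 most abundant genes (-0.00866) and without SLB replicate 1 (-0.0100). Leaving out each library in turn gave -0.0100 to 0.0473. Such omissions gave -3.37 to -3.03 for d3, 0.43 to 0.51 for d5 and -0.21 to -0.01 for d1. Genes called as falling numbered 4773, against 7369 after median-ratio scaling and 2340 with equal totals.

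With 3 libraries against 4, the exact permutation test cannot go below 0.0571, so these omissions give values only. The difference in log2 ratio was -5.14 to -4.70 for d3 over d5, -4.04 to -3.55 for d3 over an1, -3.69 to -2.60 for d3 over d1, 0.91 to 1.21 for d5 over an1 and 1.05 to 2.18 for d5 over d1. With a pseudocount of 0.5 or 1, d5 over d1 gave 0.95 and 0.63. Percentile differences were -68.3 to -64.2 for d3, -4.34 to -3.66 for an1, -4.58 to -3.74 for d5 and -6.27 to -2.58 for d1. Ranked among genes above 0 FPKM in at least 1 library, they were -42.4 for d3, -8.41 for an1, 0.46 for d5 and -12.3 for d1. Ranked among genes above 0 FPKM in each library, they were -47.8 for d3, 0.068 for an1, 9.36 for d5 and -4.06 for d1. The percentile of d1 was set to 0 in libraries where d1 was listed at 0 FPKM, so its value there is not a shift in rank. The direction of an1 and d5 therefore depended on the genes ranked.

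Same-numbered libraries correlated at 0.0152 to 0.126 in their deviations from group means, and for 2 of 4 numbers the pair matched best both ways. The numbers were not taken as pairs in the reported fit, but these values do not exclude a pairing. With a replicate block of these numbers the SE of d3 was 0.17, against 0.24 without it. That block gave 15617 called genes, against 15636 without it, and d3 (limma adjusted p = 1.75e-05) and d5 (limma adjusted p = 0.00617) kept their calls. The filter at 5 FPKM leaves no value for an1, d5 and d1. Depth is unknown, so the counting error of these low values is not known either.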

Other observations

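Ranked among the 30738 genes above 0 FPKM in at least 1 library, a set chosen after the values were seen, an1 held percentile 20.6 ± 2.20 in SLB libraries and 29.0 ± 1.38 in controls (SD, n = 4 each), and the groups did not overlap (two-sided exact permutation p = 0.0286, adjusted p = 0.0571 over the 4 genes). Its FPKM overlapped between the groups. The share of the 30738 genes that stand apart in this ranking was not counted. SLB libraries had 24649 to 28071 genes above 0 FPKM, against 23052 to 24629 in controls. The percentile of so low a gene moves with that number as well as with its own level. Ranked among the genes above 0 FPKM in each library, which were not the same genes in every library, its percentile differed by 0.068.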
